A study of Mus musculus with 435 samples.

Results

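Lypd6b, Ercc2, Gfod2, Sft2d3, Suds3 and 4930565N06Rik are 6 of the 13409 genes named on a spotted mouse array. They were chosen by their measured log2 ratios on the low-fat diet, which were lower in C57 than in A/J liver. Each of the 6 has 1 probe. On the low-fat diet their gaps between the strains were the 6 lowest of 7643 probes tested, so those arrays serve here only as a description. The values of the high-fat arrays and of week 0 were not those the choice used, and the strain gap was tested on them. The members were chosen with earlier results of these data known. The filter behind the 7643 probes counted the high-fat arrays too.

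The study followed liver expression in A/J and C57 mice, both inbred strains, fed a low-fat or a high-fat diet, with arrays at week 0, week 1 and weeks 3 to 11. Each of the 435 deposited arrays compared liver total RNA (Cy5) with a reference RNA pooled from 10 tissues of C57 mice, liver included (Cy3). The groups used were A/J high-fat (87 arrays), A/J low-fat (88), C57 high-fat (88) and C57 low-fat (87) over 9 weeks, and 19 A/J and 20 C57 arrays at week 0, which carry a diet label as well. The labels used here give no age, sex or C57 substrain and do not say which arrays share a mouse, so p-values over arrays measure a spread that may be partly technical. Week 8 was left out because 28 of its 40 arrays correlated below 0.15 with the median of all arrays, as did 4 arrays of other weeks, which were left out too. The arrays used measured a median of 11431 probes after week 0 (2273 to 14929) and of 5007 probes at week 0 (194 to 10027). Values are log2 ratios of liver over the reference, centred on the median of each array, so 0 is the ratio of the median probe. A value of 1 is a liver-to-reference ratio double that of the median probe.

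The 6 genes belong to unrelated pathways. Ercc2 encodes XPD, a helicase of the transcription factor TFIIH, which opens DNA at promoters and around damaged bases in nucleotide excision repair. Suds3 encodes a subunit that holds the Sin3 histone deacetylase complex together, a complex that removes acetyl groups from histones at repressed genes. Lypd6b encodes a small cell-surface protein of the Ly6/uPAR family, which is known for binding nicotinic acetylcholine receptors. Sft2d3 encodes a membrane protein related to a yeast protein of vesicle traffic to the Golgi. Gfod2 encodes a protein with a predicted oxidoreductase domain, and 4930565N06Rik is annotated by RefSeq as a long non-coding RNA. Genes of repair, chromatin and vesicle traffic are active in most cells, hepatocytes included.

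Promoter sequences matched 4 of the 6 genes in RefSeq on GRCm38.p6, and the pair printed here belongs to the genes with the largest and the smallest strain gap on the high-fat diet. Each is the 250 bases before the annotated start, 5′ to 3′ on the strand of the gene, with every CG pair in capitals. The window of 4930565N06Rik is chr16:36897190-36897439 and that of Suds3 is chr5:117115994-117116243, both on the minus strand.
4930565N06Rik: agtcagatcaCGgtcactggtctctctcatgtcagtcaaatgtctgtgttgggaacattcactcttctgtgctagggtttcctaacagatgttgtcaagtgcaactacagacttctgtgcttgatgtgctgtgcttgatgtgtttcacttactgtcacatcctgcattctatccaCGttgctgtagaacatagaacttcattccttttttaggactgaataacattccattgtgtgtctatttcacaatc
Suds3: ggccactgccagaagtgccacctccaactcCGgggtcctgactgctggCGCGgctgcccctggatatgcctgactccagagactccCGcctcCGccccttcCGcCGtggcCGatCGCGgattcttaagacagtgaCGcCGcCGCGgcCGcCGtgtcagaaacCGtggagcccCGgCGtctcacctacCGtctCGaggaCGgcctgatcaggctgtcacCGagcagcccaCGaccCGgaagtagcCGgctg
The 4930565N06Rik window holds 2 CG pairs and the Suds3 window 26, where the median of 32817 windows of this length is 6. The Ercc2 window holds 21 and the Gfod2 window 15. Of all windows, 18.8% hold fewer CG pairs than that of 4930565N06Rik, and 72.7%, 83.7% and 90.4% hold fewer than those of Gfod2, Ercc2 and Suds3. At least 1 CG pair is present in 92.1% of windows. The 4 windows thus range from poor to rich in CG pairs.

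On the low-fat diet, the comparison that chose the genes, the mean gap of C57 minus A/J over the 9 weeks was −1.56 ± 0.55 for 4930565N06Rik, −1.33 ± 0.48 for Lypd6b, −1.33 ± 0.45 for Ercc2, −1.13 ± 0.75 for Gfod2, −1.08 ± 0.46 for Sft2d3 and −0.74 ± 0.42 for Suds3 (SD, n = 9 weeks). All 6 lay lower in C57 in 9 of 9 weeks there. Just outside the choice stood a probe with no gene name at −0.71 and Tsks, a testis kinase substrate, at −0.69. Of all probes, 0.301% were past the threshold and lower in C57 on this diet, from which nothing is read about the members.

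On the high-fat diet all 6 genes were again lower in C57. The 6 gaps ran from −0.57 to −1.36, which are A/J-to-C57 ratios of 1.49 to 2.56, and all 6 passed an adjusted p of 0.05 in limma on the weekly means. Among all 7643 probes 1.05% were called lower in C57, and 3.56% were called in either direction. Each of the 6 was lower in C57 in 9 of 9 weeks, which 1.23% of all probes were. On this diet the 6 members ranked 1, 2, 3, 5, 6 and 17 from the lowest gap. An exact two-sided sign-flip permutation over the 9 weekly gaps gave p = 0.00391 for each gene, the smallest value that its 512 sign patterns allow. Any probe lower in 9 of 9 weeks gets this p, so it restates that count and adds no further support.

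**Figure D1:**
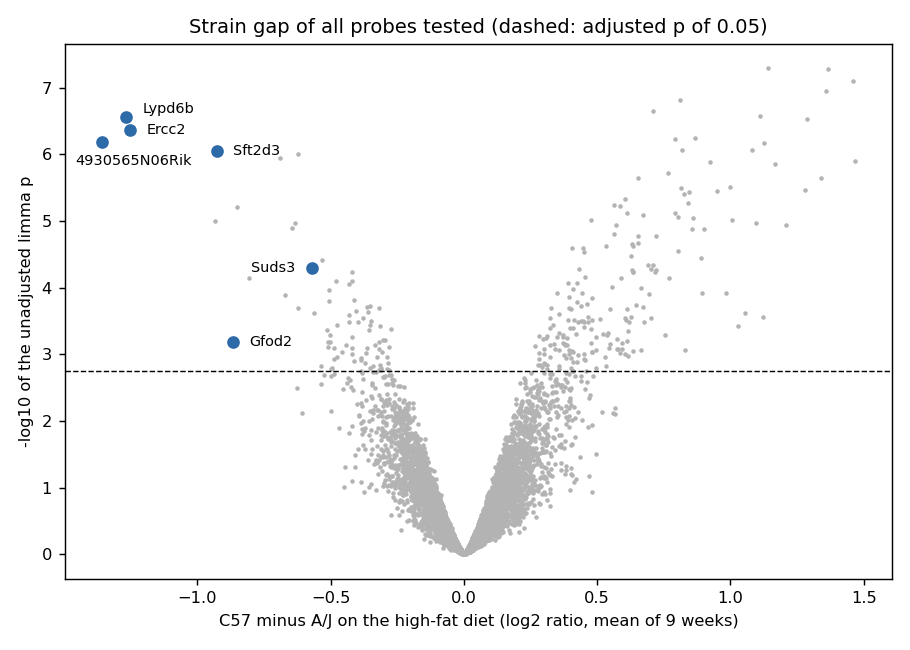
Strain gap of every probe tested on the high-fat diet, with the C57 minus A/J difference (log2 ratio, mean of 9 weeks) on the horizontal axis and −log10 of the unadjusted limma p on the vertical axis. The 6 genes are large blue points at gaps from −1.36 to −0.57, all above the dashed line at an adjusted p of 0.05, and the other probes are grey.

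Ercc2, the TFIIH helicase gene, lay near the median probe in A/J and well below it in C57. On the high-fat diet the 83 A/J arrays that measured it ran from −1.49 through a median of 0.26 to 0.97, and the 62 C57 arrays from −2.61 through −1.26 to 0.63. The arrays of the strains overlapped, but 61 of the 62 C57 arrays lay below the A/J median, and in 3 of 9 weeks no array of one strain reached into the other. The weekly means were 0.16 ± 0.27 in A/J and −1.09 ± 0.49 in C57 (SD, n = 9 weeks), a gap of −1.25 ± 0.13 (SE, limma adjusted p = 0.000331). The weekly gap was −1.87 at week 1 and −1.72 at week 3, −0.61 at week 4 and −0.58 at week 6, and between −0.85 and −1.52 in the other weeks. The small gaps of weeks 4 and 6 rest on 4 and 3 C57 arrays.

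The Ercc2 probe was measured less often in C57. On the high-fat diet 70.5% of C57 arrays and 95.4% of A/J arrays gave a value for it, while the median number of probes measured was 11366 and 11479. Another 2 C57 arrays listed it at or below 0. The part of the missing spots in the gap was not tested. With those values at or below 0 set to the 1st percentile of their array, the gap was −1.29 ± 0.14 (SE, limma adjusted p = 0.000276).

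Suds3, the Sin3 complex gene, was the member with the smallest gap, and it lay above the median probe in both strains. The 86 A/J arrays ran from −0.21 through a median of 1.12 to 4.21, and the 86 C57 arrays from −1.18 through 0.61 to 1.97. The strains overlapped in every week, and 69 of the 86 C57 arrays lay below the A/J median. The weekly means were 1.17 ± 0.56 in A/J and 0.60 ± 0.30 in C57 (SD, n = 9 weeks), a gap of −0.57 ± 0.10 (SE, limma adjusted p = 0.00565). Both strains had their highest weekly mean at week 6, at 2.04 in A/J and 1.15 in C57. The gap ran from −0.16 at week 4 to −1.11 at week 10.

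Lypd6b, the Ly6/uPAR gene, had every C57 array below the A/J median on the high-fat diet after week 0, alone among the 6 genes. The 85 A/J arrays ran from −0.91 through a median of 0.76 to 1.79, and the 86 C57 arrays from −2.15 through −0.49 to 0.40. Of the 86 C57 arrays 15 lay below every A/J array, 1 A/J array lay below the C57 median, and in 5 of 9 weeks the arrays did not overlap. The weekly means were 0.78 ± 0.24 in A/J and −0.49 ± 0.34 in C57 (SD, n = 9 weeks), a gap of −1.27 ± 0.13 (SE, limma adjusted p = 0.000248). The lowest of the 9 A/J weekly means was 0.27 and the highest of the C57 ones −0.09, so these means did not overlap. The gap ran from −0.52 at week 3 to −2.14 at week 6. At least 97% of arrays in each of the 4 groups of strain and diet measured the probe.

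4930565N06Rik, the non-coding RNA, had the lowest value of C57 minus A/J among all probes tested on the high-fat diet. The 86 A/J arrays ran from −1.78 through a median of 0.78 to 2.47, and the 74 C57 arrays from −2.75 through −0.56 to 1.64. Single arrays overlapped in 7 of 9 weeks, yet 72 of the 74 C57 arrays lay below the A/J median. The weekly means were 0.89 ± 0.42 in A/J and −0.46 ± 0.36 in C57 (SD, n = 9 weeks), a gap of −1.36 ± 0.15 (SE, limma adjusted p = 0.000370). Its lowest A/J weekly mean was 0.40 and its highest C57 one 0.27. Lypd6b and 4930565N06Rik are thus 2 of the 3 probes whose weekly means did not overlap with C57 below, 0.0393% of those tested. The other was Slc7a13, an amino acid transporter gene, at −0.63 ± 0.09 (SE). The gap of 4930565N06Rik ran from −0.79 at week 7 to −2.61 at week 6. The probe was measured on 84.1% of C57 and 98.9% of A/J high-fat arrays, and the part of the missing spots in the gap was not tested.

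Sft2d3, the vesicle traffic gene, lay close to the median probe in A/J and below it in C57 on the high-fat diet. The 82 A/J arrays ran from −2.88 through a median of −0.0029 to 1.06, and the 68 C57 arrays from −3.85 through −0.98 to 0.42. Of the 68 C57 arrays, 64 lay below the A/J median, and the arrays did not overlap in 1 of 9 weeks. The weekly means were −0.14 ± 0.39 in A/J and −1.06 ± 0.38 in C57 (SD, n = 9 weeks), a gap of −0.92 ± 0.11 (SE, limma adjusted p = 0.000398). The gap was smallest at week 4, at −0.23, where 4 C57 arrays measured the probe, and largest at week 10, at −1.45. The share of arrays that measured it was 77.3% in C57 and 94.3% in A/J, and the part of the missing spots was not tested here either.

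Gfod2 had the least even gap. The 86 A/J arrays ran from −0.59 through a median of 1.43 to 2.73, and the 87 C57 arrays from −1.84 through 0.68 to 2.39. The strains overlapped widely, with 75 of the 87 C57 arrays below the A/J median and 15 A/J arrays below the C57 median. The weekly means were 1.31 ± 0.34 in A/J and 0.44 ± 0.83 in C57 (SD, n = 9 weeks), a gap of −0.87 ± 0.19 (SE, limma adjusted p = 0.0278). This call was lost, with an adjusted p of 0.0533 to 0.0596, without week 3, 4 or 6, with quantile normalization and with weekly medians.

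**Figure D2:**
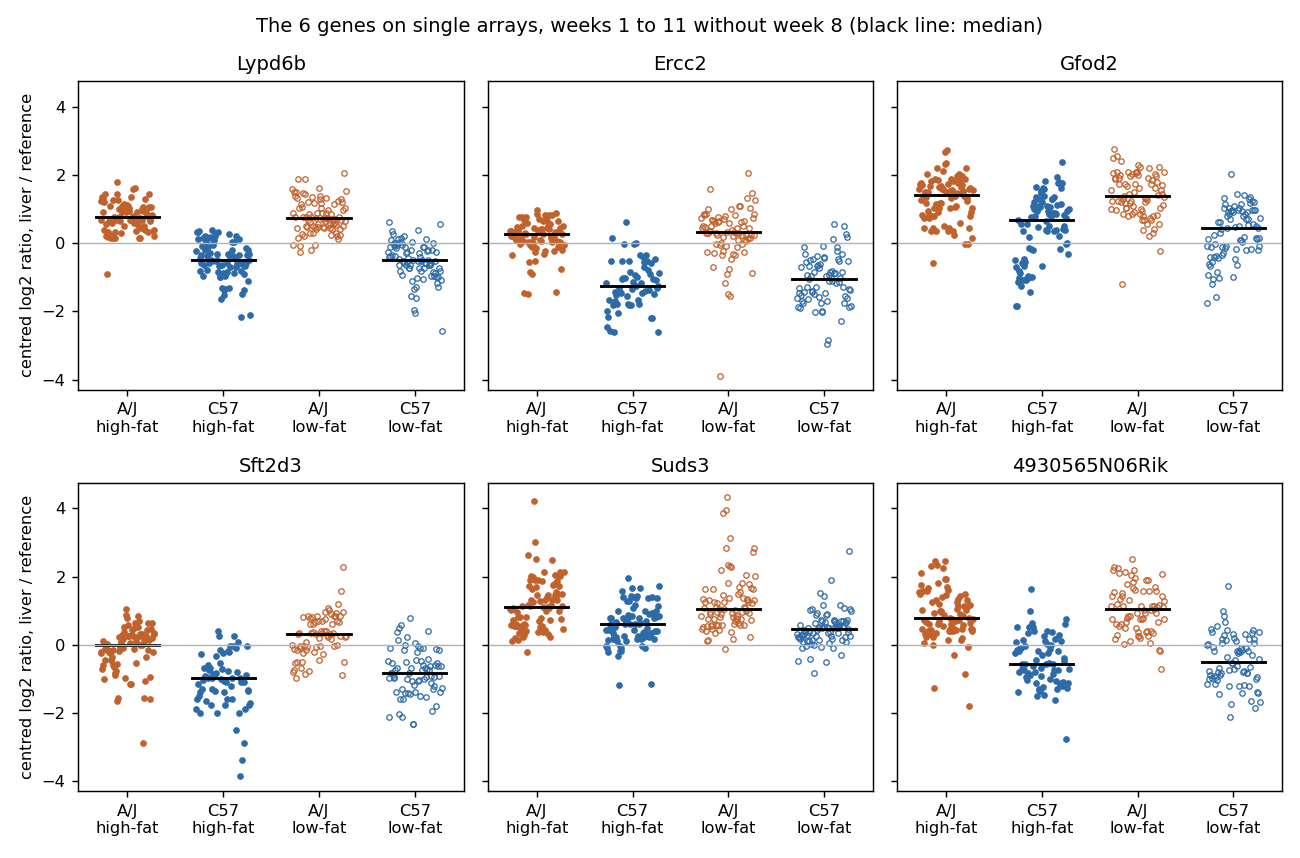
Centred log2 ratios of liver over reference (vertical axis) of the 6 genes on single arrays, by strain and diet, with filled points for high-fat, open points for low-fat and a black line at the median. In all 6 panels both C57 clouds lie below both A/J clouds at the median, with medians on the high-fat diet of 0.76 and −0.49 for Lypd6b and of 1.12 and 0.61 for Suds3.

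The Gfod2 gap was wide in the early weeks and narrow afterwards. The labels do not say when arrays were hybridised, so week and hybridisation batch cannot be told apart in this or any other comparison of weeks. It was −2.08 at week 1, −1.96 at week 3 and −1.14 at week 4, and then lay between −0.15 and −0.70 from week 5 to week 11. The mean over weeks 1 to 4 was 1.13 in A/J and −0.60 in C57, and over weeks 9 to 11 it was 1.32 in A/J and 0.91 in C57. The narrowing thus lay on the C57 side, where the low-fat means, part of the choice, were −0.42 and 0.62. The slope of the gap was 0.17 ± 0.04 per week (SE) with an unadjusted limma p of 0.000805, and the adjusted p over all probes was 0.769. The mean gap of weeks 9 to 11 exceeded that of weeks 1 to 4 by 1.32 ± 0.25 (SE, limma adjusted p = 0.395). Limma called a slope for 0 of 7643 probes, and 5.38% had an unadjusted p under 0.05. It called a late minus early difference for 0 probes as well, with 6.23% under that unadjusted p.

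None of the other 5 slopes was called. The slope per week was −0.06 ± 0.04 for Lypd6b, −0.06 ± 0.03 for Sft2d3, −0.05 ± 0.03 for Suds3, 0.01 ± 0.04 for Ercc2 and 0.02 ± 0.05 for 4930565N06Rik (SE), with limma adjusted p-values from 0.906 to 0.992. For Suds3 the mean gap was −0.25 over weeks 1 to 4 and −0.75 over weeks 9 to 11. For Sft2d3 the same means were −0.63 and −1.22, and for Lypd6b −0.87 and −1.34.

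**Figure D3:**
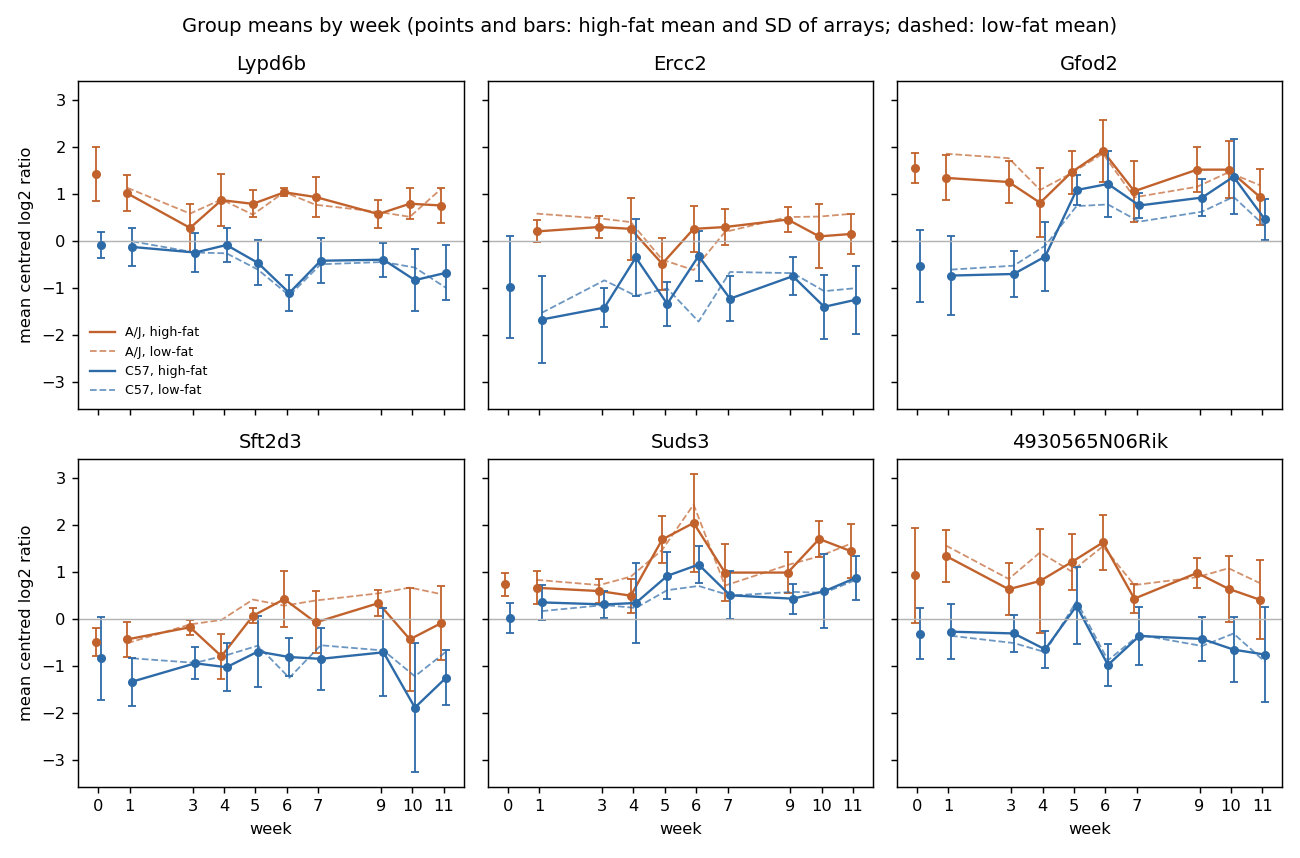
Mean centred log2 ratio (vertical axis) of the 6 genes by week (horizontal axis), with points and bars for the mean and SD of high-fat arrays, a point apart for the arrays labelled high-fat at week 0, and dashed lines for low-fat means. The C57 line of Gfod2 goes from −0.74 at week 1 to 1.08 at week 5, while the Lypd6b lines stay apart through all 9 weeks.

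At week 0 the strain gap was present in most of the 6 genes. Of the 5 members that could be tested there, 4 were called lower in C57, where 0.259% of 5414 probes were called lower and 1.35% in either direction. The diet label was kept as a term in this fit over single arrays.

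Gfod2 had the lowest gap of all probes tested at week 0. The 19 A/J arrays ran from 0.34 through a median of 1.39 to 2.24, and the 15 C57 arrays from −1.65 through −1.12 to 0.58. Of those C57 arrays 13 lay below every A/J array. The gap was −2.16 ± 0.18 (SE, limma adjusted p = 1.69e-10), an A/J-to-C57 ratio of 4.46. The high-fat gap of week 1 was −2.08 and those from week 5 on were −0.70 or closer to 0, a difference from week 0 that was not tested.

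Lypd6b ran from 0.05 through 1.36 to 2.19 on 19 A/J arrays and from −0.97 through −0.16 to 0.43 on 18 C57 arrays at week 0. All 18 C57 arrays lay below the A/J median, and the gap was −1.51 ± 0.17 (SE, limma adjusted p = 8.98e-08). Every C57 array of Gfod2, Ercc2 and 4930565N06Rik at week 0 also lay below the A/J median of its gene. Suds3 ran from 0.25 through 0.60 to 1.04 on 18 A/J arrays and from −0.38 through 0.03 to 0.65 on 14 C57 arrays. Its gap was −0.59 ± 0.10 (SE, limma adjusted p = 0.000444), and 13 of the 14 C57 arrays lay below the A/J median. The mean gap of Suds3 over the high-fat weeks was −0.57, but its weekly gaps ran from −0.16 at week 4 to −1.11 at week 10.

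4930565N06Rik ran from −0.74 through 0.73 to 2.06 on 14 A/J arrays and from −1.88 through −0.22 to 0.30 on 15 C57 arrays at week 0. The gap was −1.17 ± 0.24 (SE, limma adjusted p = 0.00517). With the arrays of 1 diet label alone some calls were lost. For 4930565N06Rik the gap was −1.25 with an adjusted p of 0.173 on arrays labelled high-fat and −1.11 with 0.209 on those labelled low-fat, and for Suds3 it was −0.42 with 0.412 on those labelled low-fat.

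Sft2d3 was not called at week 0. It ran from −0.93 through −0.33 to 0.20 on 12 A/J arrays and from −1.80 through −0.82 to 0.32 on 14 C57 arrays, a gap of −0.49 ± 0.21 (SE, limma adjusted p = 0.331). A two-sided permutation test of that gene alone over arrays gave p = 0.0313. Ercc2 was measured on too few arrays for the fit, 7 from A/J and 5 from C57. The A/J arrays ran from 0.22 through 0.36 to 1.40 and the C57 arrays from −1.93 through −1.23 to 0.20. All 5 C57 arrays lay below every A/J array, a difference of −1.40 with p = 0.00126 in an exact two-sided permutation test over 792 regroupings, adjusted for no other test. Both permutation tests left out the diet label. For Ercc2 most A/J arrays carried the low-fat label and most C57 arrays the high-fat one.

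By strain and diet over the 9 weeks, all 6 genes had both C57 means below both A/J means, which the choice of members fixes in part. In A/J the high-fat mean was the lower one for all 6 genes, while in C57 the order of the diets differed between genes. In A/J the high-fat minus low-fat difference of weekly means ran from −0.37 ± 0.41 for Sft2d3 to −0.02 ± 0.22 for Lypd6b, and in C57 from −0.22 ± 0.34 for Sft2d3 to 0.16 ± 0.27 for Gfod2 (SD, n = 9 weeks). Each of the 12 mean differences was smaller than the SD of its single weeks. The high-fat mean was the higher one in 1 of 9 weeks for Sft2d3 and in 8 of 9 for Suds3 in C57, and in 2 of 9 weeks for Sft2d3 and for Ercc2 in A/J. The low-fat arrays chose the members, for values high in A/J beside those of C57. Such a choice by itself favours a lower high-fat mean in A/J and a higher one in C57. The differences between the diets are therefore given with no test, and no share over all probes stands beside them. The A/J means on the high-fat and low-fat diets were 0.78 and 0.79 for Lypd6b, 0.16 and 0.24 for Ercc2, and 1.31 and 1.41 for Gfod2. They were −0.14 and 0.24 for Sft2d3, 1.17 and 1.23 for Suds3, and 0.89 and 1.09 for 4930565N06Rik. The C57 means in the same order of diets were −0.49 and −0.54 for Lypd6b, −1.09 and −1.08 for Ercc2, and 0.44 and 0.28 for Gfod2. They were −1.06 and −0.84 for Sft2d3, 0.60 and 0.49 for Suds3, and −0.46 and −0.47 for 4930565N06Rik.

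Within a strain the 6 genes did not vary together. Over the 18 C57 groups of diet and week, Lypd6b went against Suds3 (Pearson r = −0.81) and against Gfod2 (r = −0.71), while Gfod2 went with Suds3 (r = 0.71). Over the 18 A/J groups the highest r was 0.65, between Gfod2 and 4930565N06Rik, and the lowest −0.56, between Ercc2 and Suds3. The 6 probes share every array, so these values are descriptions.

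Over the 36 groups of strain, diet and week, the genes most like a member in level were in part other members. These groups hold both strains and the low-fat arrays that chose the members, so a shared strain gap raises r. Lypd6b and 4930565N06Rik were nearest each other (r = 0.89), though within each strain their r was 0.44 in A/J and 0.41 in C57. Next to Lypd6b came B3galt1, a galactosyltransferase gene (r = 0.87). Ercc2 was nearest to Tsks (r = 0.82) and Lypd6b (r = 0.78). Within each strain the r of Ercc2 and Lypd6b was −0.05 in A/J and −0.04 in C57. Sft2d3 was nearest to the kinase gene Melk (r = 0.77) and N4bp2l1 (r = 0.77). Suds3 was nearest to Trip10 (r = 0.89), which encodes a membrane-bending protein, and Tonsl (r = 0.87), a replication repair gene. Gfod2 was nearest to Ccdc125 (r = 0.75) and the transferrin gene Trf (r = 0.74), and 4930565N06Rik after Lypd6b to Sft2d3 (r = 0.77). For Sft2d3 and 4930565N06Rik the r within a strain was 0.08 in A/J and 0.30 in C57. Values within a strain are given here for pairs of members only.

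No tested partner of the members had a gap as large as the −0.57 of Suds3, the smallest among the members. Gtf2h4 at 0.55 and Ly6k at −0.50 came near it, the former in the other direction. Of 13 tested genes of nucleotide excision repair and TFIIH, 0 were called lower in C57 on the high-fat diet and 1 higher, the TFIIH subunit gene Gtf2h4 at 0.55 ± 0.12 (SE, limma adjusted p = 0.0289), with a median gap of 0.05. Mms19, which helps load iron-sulfur clusters into XPD, stood at −0.13. Of 11 tested genes of the Sin3 complex, 0 were called either way, with a median of −0.01, Sin3b at −0.29 (limma adjusted p = 0.256) and Ing1 at 0.21. Of 15 other Ly6/uPAR genes, 1 was lower, Ly6k at −0.50 ± 0.11 (SE, limma adjusted p = 0.0242), Ly6g6c stood at −0.24 (limma adjusted p = 0.126), and the median was −0.06.

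Of 17 tested Golgi SNARE and vesicle fusion genes 0 were called, with a median of 0.08, Golga2 at 0.47 (limma adjusted p = 0.0930) and Stx5a at −0.20. The 1 tested relative of Gfod2, the dehydrogenase gene Dhdh, stood at 0.07. Over all 6459 genes tested, 72 were lower in C57 and 161 higher, with a median of 0.01.

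Of the cell type markers, those called between the strains were all in the hepatocyte list. Hepatocyte markers lay above the median probe for 16 of 18 genes in A/J and 17 of 18 in C57, with median levels of 0.57 and 0.70. Of these 18, 2 were lower in C57, Trf at −0.41 ± 0.08 (SE, limma adjusted p = 0.0120) and the albumin gene Alb at −0.39 ± 0.09 (SE, limma adjusted p = 0.0373), and 1 was higher, Ahsg, the fetuin gene, at 0.54 ± 0.12 (SE, limma adjusted p = 0.0229). That is 3 of 18, beside 72 lower and 161 higher among all 6459 genes, and the part of these markers in the members' gaps was not tested. None of 6 macrophage and leukocyte, 2 endothelial, 4 stellate and 5 bile duct markers was called, with gaps from −0.13 (Cd74) to 0.20 (Ptprc). Of the macrophage and leukocyte list, 17 genes were on the array. The 6 tested held no gene particular to macrophages, so macrophages were not checked. The mean level of the macrophage and leukocyte markers was −0.14 in A/J and −0.17 in C57. In bulk liver, fewer cells of a type and less RNA per cell cannot be told apart.

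Of the markers of other tissues in the reference 0 of 10 were called, with a median gap of −0.06 and median levels of −1.17 in A/J and −1.23 in C57. Of the genes in which A/J or C57 lines carry known mutations, Dysf, the dysferlin gene, stood at −0.10 (limma adjusted p = 0.544) and Nnt, a mitochondrial transhydrogenase gene, at 0.15 (limma adjusted p = 0.660). None of the 2 red blood cell markers on the array passed the filter.

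Of the genes around the members in the genome 2 of 60 were called, where 3.56% of all 7643 probes were. The 5 nearest tested genes on each side of the 6 members give 60 genes, whose median gap was 0.01 and whose range was −0.31 to 0.69, with 28 of 60 below 0. By member the median ran from −0.04 around Sft2d3, where 8 of 10 neighbours were below 0, to 0.16 around Gfod2, where 1 of 10 was. The lowest was Orc4, an origin recognition subunit gene 9 genes from Lypd6b, at −0.31 ± 0.08 (SE, limma adjusted p = 0.0475). The highest was Cit, the citron kinase gene 25 genes from Suds3, at 0.69 ± 0.13 (SE, limma adjusted p = 0.0102). Those were the 2 called genes, and no other neighbour of any member was called in either direction.

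**Figure D4:**
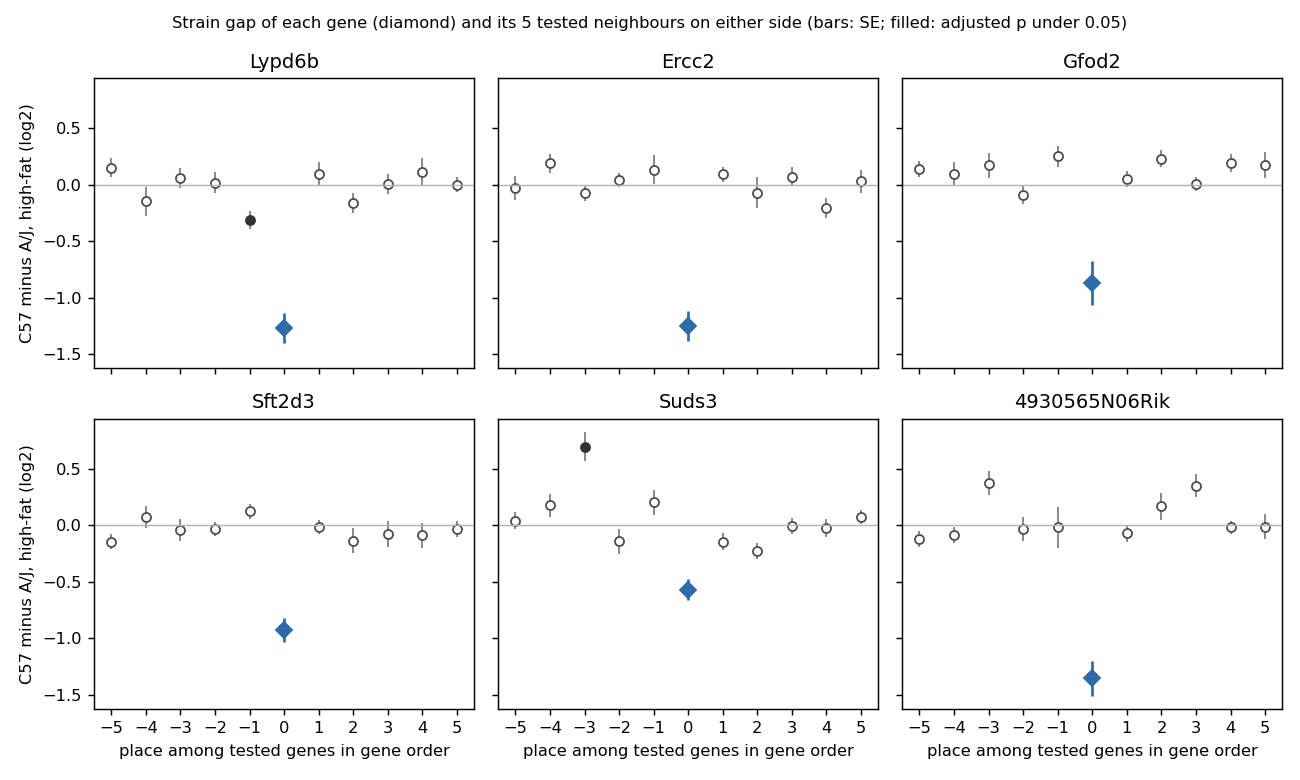
Strain gap on the high-fat diet (vertical axis, C57 minus A/J in log2, bars for the SE) of each of the 6 genes (diamond) and its 5 nearest tested neighbours on either side, by place in the gene order (horizontal axis). Filled circles are the neighbours with an adjusted p under 0.05, Orc4 at −0.31 and Cit at 0.69, and the 60 neighbours lie above the diamond of their member.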

How the data were processed

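Liver RNA was hybridised against a pooled reference on 2-colour spotted arrays, per the labels. The deposited values are linear ratios of liver over reference with a mean of 1 on every array, as read from the values; image analysis, background subtraction and normalization are not given in the sources used here. Of all cells 42.4% are empty, and 0.251% of measured values are below 0 and 0.271% equal to 0. Signal intensities were not used here, so the number of arrays limits the precision. Of 17280 probe positions 14711 have 1 gene symbol, 6 several, and 14416 probes matched the mouse gene table of GRCm38.p6 by Entrez identifier, used for names and gene order.

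The log2 of each positive ratio was taken with no pseudocount, those not above 0 counted as missing, and each array was centred on its median over the probes tested. Arrays with identical columns (2 pairs) were counted once, which left 433. The fits used limma 3.58.1 (R 4.3.3). The high-fat fit took 1 mean per strain and week of the high-fat arrays, with a term for each week, over probes measured on 70% of arrays and on 3 arrays of each of 36 groups. The slope of the weekly gap on week was fitted likewise. Week 0 was fitted on single arrays with the diet label as a term, over probes with 3 arrays in each of 4 groups. P-values were adjusted by Benjamini-Hochberg across every probe of a fit, and 0.05 was the threshold. The code was tested on simulated data.

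The members and gene lists were chosen with earlier results of these data known. Text names all members, the 2 list genes with the smallest p, the called neighbours, the 2 genes most correlated with each member, and Slc7a13 and Alb, chosen after their values were seen. Alternatives covered centring, floors, filters, medians, single arrays, weeks left out and the replicate number as a block.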

Additional observations from a re-analysis of the deposited data

Results flagged for a closer look

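The 128 groups of 4 to 10 arrays examined were 21 of week 0 and otherwise of the high-fat weeks. In 13 of them, all in the high-fat weeks, a single array stood apart from the others by the ratio of the gap to the range. About 5.35 groups of those weeks would do so by chance at 1 in 20, if the groups were independent. The members share their arrays, so the groups are not. The low A/J values of Ercc2 and Gfod2 at week 10 came from the same array. The low arrays in A/J were 1 of Lypd6b at week 3 (−0.91), 3 of Ercc2 at weeks 1 (−0.36), 4 (−1.45) and 10 (−1.42), 1 of Gfod2 at week 10 (−0.0114), 1 of Sft2d3 at week 6 (−0.97) and 1 of 4930565N06Rik at week 11 (−1.78). The low arrays in C57 were 1 of Lypd6b at week 11 (−2.10), 1 of Gfod2 at week 6 (−0.68), 1 of Sft2d3 at week 3 (−1.64) and 1 of Suds3 at week 10 (−1.15). The high arrays were both in C57, Gfod2 at week 3 (0.37) and Suds3 at week 7 (1.66). All 13 were kept in the weekly means, and the fit with weekly medians gives the values with less weight on them.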

How the results depend on the processing

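All gaps of the 6 members on the high-fat diet and at week 0 kept their sign under every alternative that tested them. The count of probes called on the high-fat diet, 272, was 57 of 3190 with week 8 and every array kept (Lypd6b and Suds3 were the members tested there, both called), 807 with single arrays as units, 672 with the replicate block on single arrays, and 166 to 230 with each week left out. Quantile normalization gave 116 lower and 175 higher against 80 and 192. At week 0 the 73 calls were 43 and 13 with arrays of the high-fat or low-fat label alone, and 34 with the replicate block, under which 4930565N06Rik was not called (adjusted p = 0.0523). Same-numbered arrays of the strains deviated together, with a correlation over 0.1, in 21 of 81 high-fat pairs and 4 of 19 week 0 pairs. The median correlations were 0.01 and −0.05. No share for unpaired arrays was computed, so these values do not settle whether the title numbers pair the arrays. The count of slopes was 0 under each alternative. With the 1st percentile as a floor no member changed its call.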

Other observations

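Of the 60 genes tested around the members at week 0, chosen by the same rule in the gene order, 1 was called. Among all 5414 probes of that fit 1.35% were called. The gene was singled out after its values were seen. Pebp1, which encodes a Raf kinase inhibitor and lies 2 genes from Suds3, was lower in C57 by limma at −1.14 ± 0.14 (SE, adjusted p = 8.93e-05), against −0.59 for Suds3 itself. Pebp1 did not pass the filter of the high-fat fit, so the gap has no counterpart there. Orc4, called beside Lypd6b on the high-fat diet, stood at −0.07 at week 0 (limma adjusted p = 0.848).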
